A study of Mus musculus with 8 samples.

Results

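Complement components and regulators were examined as 8 genes in costal chondrocytes with and without *Mir140*. The genes are *C3*, *C4b*, *Cfb*, *C1ra*, *C1s1*, *Serping1*, *Cd55* and *Cd59a*. They were chosen by their mouse gene symbols, and each was found once among the 52325 Ensembl gene identifiers listed for every library. All 8 passed the filter on low values (0.5 TPM or more in 4 or more libraries), as did 17177 genes in all.

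The 8 libraries are RNA-seq of costal (rib) chondrocytes released by collagenase from mice 7 d old, 4 labelled wild-type control and 4 labelled *Mir140*-null, all on a C57BL/6J background. The null line carries a germline deletion of *Mir140*, made by injecting zygotes with Cas9 and guide RNAs, so no cell type retains the gene. Founders of mixed C57BL/6 and CBA/ca origin were backcrossed to C57BL/6J, and crosses of heterozygotes gave the separate wild-type and null lines, so that other differences between the lines cannot be told apart from the deletion. The labels number 4 replicates per genotype and do not say whether each was a single animal or a pool, so the p-values measure only the spread between these libraries, which may be technical. Values are in TPM, the share of a library's transcripts that a gene holds, corrected for transcript length and scaled to a total of 1000000, and the files give no read counts. The labels state more than 12000000 reads for each sample, without the number in each library, so the exact depth behind a value is unknown.

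Complement is a cascade of secreted proteases and their substrates that tags surfaces for removal and recruits inflammatory cells. In the classical pathway C1q binds its target, and the proteases C1r and C1s then cleave C4 and C2. The resulting enzyme cleaves C3, the protein on which all routes converge, and factor B forms the C3-cleaving enzyme of the alternative pathway, which amplifies the reaction. C1 inhibitor, encoded by *Serping1*, inactivates C1r and C1s, CD55 speeds the decay of the C3-cleaving enzymes on the cell surface, and CD59 blocks assembly of the terminal pore. The liver makes most of the circulating proteins, but connective tissue cells also make several of them, and complement activation has been studied in osteoarthritic cartilage.

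The sequences of the deleted microRNA show what was searched for in the 8 genes. miR-140-3p, one of the mature products of *Mir140*, occurs with different 5′ ends, which give it either of the seeds shown in capitals (bases 2 to 8 from the 5′ end). The first line is the RefSeq mature sequence (GRCm38) and carries the seed of miR-140-3p.2. The second is the same sequence from its second base and carries the seed of miR-140-3p.1.
Annotated start: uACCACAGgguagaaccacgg
Shifted start: aCCACAGGguagaaccacgg
A match to a seed in a 3′UTR was counted as an 8mer, 7m8 or 7a1 site. The 7m8 words were CTGTGGT for the seed of the first line, CCTGTGG for that of the second and AACCACT for miR-140-5p, the product of the other arm. The longest annotated 3′UTRs of the 8 genes, from 43 bases in *C3* to 1285 bases in *Cd55*, held none of these sites on the sense strand. Among 12988 tested genes with an annotated 3′UTR, 24.9% held a site for the first seed, 30.3% one for the second and 14.3% a miR-140-5p site. These shares were not matched for 3′UTR length, and those of *C3*, *C4b* and *Cfb* had only 43, 106 and 195 bases. The absence of sites in the 8 genes was therefore not compared with what their lengths would give. Sites outside the longest 3′UTR were not searched.

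Several of the 8 genes have close copies in the mouse genome, and the reads behind a TPM value had to be divided between them. Of the 75-base words in the annotated transcripts of *C4b*, 22.7% also occurred in *C4a*. For *C1ra* and *C1rb* the shared fraction was 40.1%, for *C1s1* and *C1s2* 13.0%, for *Cd55* and *Cd55b* 5.53%, and for *Cd59a* and *Cd59b* 1.66%. *C3* and *Serping1* shared no such word with another gene. *Cfb* shared 69.9% of its words with *Gm20547*, an overlapping gene that was at 0.207 TPM or lower in every library. Windows of 30 bases in a gene and its copy show what tells the reads apart, with differing bases in capitals. The window that differs most was taken among those before the stop codon that aligned without gaps between matching stretches. *C4b* (chr17:34735436-34735465, minus strand) and *C4a* (chr17:34816092-34816121, minus strand) differ at 9 bases here, and *C1ra* (chr6:124522649-124522678, plus strand) and *C1rb* (chr6:124580695-124580724, plus strand) at 7 bases, all in GRCm38/mm10.
C4b: aGGtggtggctCGagggGTtttTgattTaG
C4a: aATtggtggctAAagggACtttGgattCaA
C1ra: tcgggaTaacagAaGataAgTtaGctttcG
C1rb: tcgggaCaacagGaAataGgAtaCctttcC

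Libraries differed in ways the genotype does not name, and these bear on the 8 genes. *Mir140*, whose annotated gene is 70 bases long, had a value above 0 only in a library labelled *Mir140*-null (replicate 2, 8.86 TPM). Its TPM therefore give no check of the genotypes, which were taken from the labels. The paper checked genotype outside these values, by PCR of ear notches and Sanger sequencing. It also measured the mature products of *Mir140* by qRT-PCR in rib chondrocyte RNA, and reports that RNA from several of those samples was sequenced. *Mir140*-null replicates 1 and 2 stood apart from replicates 3 and 4. The 8 fibroblast and perichondrium markers summed to 3670 to 6590 TPM in the wild-type libraries and to 1010, 1200, 5850 and 4470 TPM in *Mir140*-null replicates 1 to 4. Of the tested genes, 56.6% had replicates 1 and 2 on one side and replicates 3 and 4 on the other. The 9 chondrocyte markers, led by *Col2a1*, summed to 60400 to 75700 TPM in wild-type and 45700 to 63600 TPM in *Mir140*-null libraries. Most of that sum was *Col2a1* itself, and of the 9 markers *Acan* was called higher (552 to 1010 TPM in the means) and 2, *Hapln1* and *Col9a1*, lower in *Mir140*-null libraries. All 6 hepatocyte markers were under 1 TPM in every library. The mitochondrial genome gave 4.06% to 6.98% of the TPM in wild-type and 8.41% to 10.09% in *Mir140*-null libraries.

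Of the 8 genes, *C4b* rose and *C1s1* fell in *Mir140*-null chondrocytes, and 6 did not pass the test. The test was limma on log2(TPM + 1) with Benjamini-Hochberg adjustment over all 17177 genes, two-sided, and a gene was called at an adjusted p under 0.05. By the same rule 16.9% of all tested genes were called, 10.5% higher and 6.4% lower in *Mir140*-null libraries. The genotypes did not overlap for *C4b* and *Cfb*, 2 of the 8 genes, against 25.9% of all tested genes. The median log2 fold change was 0.19 over the 8 genes and -0.01 over all tested genes.

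**Figure D1:**
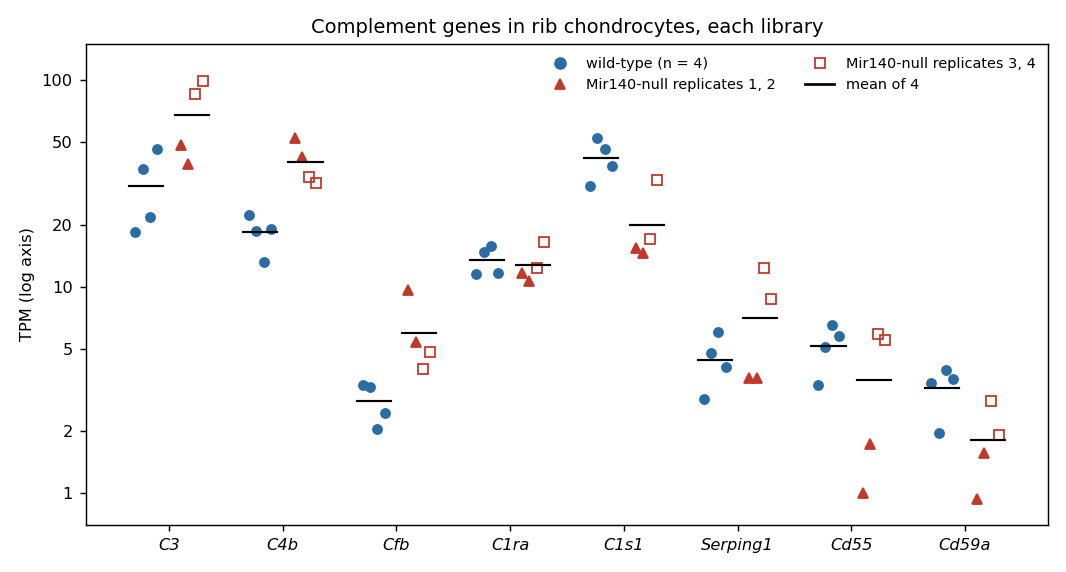
TPM of each of the 8 genes (log axis) in the 4 wild-type libraries (blue circles), *Mir140*-null replicates 1 and 2 (red triangles) and *Mir140*-null replicates 3 and 4 (open red squares), with black bars at the mean of the 4 libraries. All 4 *Mir140*-null libraries lie above all wild-type libraries for *C4b* and *Cfb*, while *Cd55* splits within the *Mir140*-null libraries.

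*C4b*, *C3* and *Cfb*, whose products form the C3-cleaving enzymes, all had higher means in *Mir140*-null libraries, and only *C4b* passed the test. *C4b* encodes complement C4, the substrate of C1s, on the minus strand of chr17:34728380-34743882. Its TPM were 22.3, 18.7, 13.2 and 19.0 in wild-type replicates 1 to 4 and 52.5, 42.6, 33.9 and 31.8 in *Mir140*-null replicates 1 to 4. Every *Mir140*-null library exceeded every wild-type library, and the highest 2 were replicates 1 and 2. The means were 18.3 ± 3.79 and 40.2 ± 9.43 TPM (SD, n = 4), a ratio of 2.2. This corresponded to a log2 fold change of 1.09 (SE 0.20, 95% interval 0.62 to 1.56, limma adjusted p = 0.0145). The call held in 8 of 8 fits that left out 1 library, with a log2 fold change of 0.95 to 1.19. Without *Mir140*-null replicates 1 and 2 together it was 0.83 (adjusted p = 0.0825) and was no longer called.

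The other C4 gene, *C4a*, had higher values in *Mir140*-null libraries as well but did not pass the test. *C4a* lies 65.2 kb from *C4b* on the same strand, and was at 1.29 to 3.93 TPM in wild-type and 3.05 to 6.9 TPM in *Mir140*-null libraries. Its log2 fold change was 0.81 (SE 0.29, limma adjusted p = 0.0901), and the genotypes overlapped. The ratio of *C4b* to *C4a* TPM was 4.83 to 11.2 in wild-type and 6.18 to 10.4 in *Mir140*-null libraries and overlapped between the genotypes.

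*C3* encodes the central component of the cascade and lies on the minus strand of chr17:57203970-57228136. Its TPM were 18.3, 37.1, 21.8 and 46.4 in wild-type and 48.6, 39.3, 86.1 and 98.7 in *Mir140*-null replicates 1 to 4. All *Mir140*-null libraries but replicate 2 exceeded every wild-type library, and wild-type replicates alone differed 2.54-fold from lowest to highest. The means were 30.9 ± 13.2 and 68.2 ± 28.7 TPM (SD, n = 4). The log2 fold change of 1.11 was as large as that of *C4b*, but its standard error was 0.38 (95% interval 0.24 to 1.99) and the limma adjusted p of 0.0787 did not pass. Unlike *C4b*, *C3* was 2.1-fold higher in *Mir140*-null replicates 3 and 4 than in 1 and 2.

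*Cfb* encodes factor B, the protease of the alternative pathway, on the minus strand of chr17:34856374-34862518, 112.5 kb from *C4b*. Its TPM were 3.33, 3.28, 2.05 and 2.45 in wild-type and 9.65, 5.42, 4.01 and 4.81 in *Mir140*-null replicates 1 to 4. No library of one genotype overlapped the other, and *Mir140*-null replicate 1 was the highest. The means were 2.78 ± 0.632 and 5.97 ± 2.52 TPM (SD, n = 4), a ratio of 2.15. The log2 fold change was 0.84 (SE 0.25, 95% interval 0.27 to 1.41), and the limma adjusted p of 0.0535 lay just outside the threshold. Of the fits that left out 1 library it passed in 1 of 8 (0.042 without *Mir140*-null replicate 3, and up to 0.125 in the others), and it passed in 3 of 7 other planned settings, over which the adjusted p ranged from 0.0144 to 0.11. The lowest of these came with 1 factor of unwanted variation, a setting that could change only the error. The pseudocount makes a log2 fold change at these low levels smaller than the ratio of the TPM.

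The paired proteases of C1 did not behave alike. *C1ra* and *C1s1* are neighbours on chromosome 6, 6.9 kb apart and on opposite strands (*C1ra* at chr6:124512405-124523443, plus strand, and *C1s1* at chr6:124530345-124542359, minus strand). *C1s1*, which encodes C1s, the protease that cleaves C4 and C2, was at 30.7, 52.7, 46.7 and 38.6 TPM in wild-type and 15.4, 14.5, 17.0 and 32.9 TPM in *Mir140*-null replicates 1 to 4. *Mir140*-null replicates 1 to 3 lay close together below every wild-type library, and replicate 4 lay within the wild-type range. The means were 42.2 ± 9.59 and 19.9 ± 8.68 TPM (SD, n = 4), a wild-type level 2.11 times that of *Mir140*-null. The log2 fold change was -1.09 (SE 0.28, 95% interval -1.73 to -0.46, limma adjusted p = 0.033). The call held in 2 of 8 fits that left out 1 library, those without wild-type replicate 1 and without *Mir140*-null replicate 4, and the log2 fold change stayed between -1.35 and -0.97. Without wild-type replicates 2, 3 or 4 or *Mir140*-null replicates 1, 2 or 3 the adjusted p was 0.0608 to 0.0844, and without *Mir140*-null replicates 1 and 2 together it was 0.199.

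*C1ra*, which encodes C1r, the protease that activates C1s, was at 11.5, 14.8, 15.7 and 11.7 TPM in wild-type and 11.7, 10.6, 12.3 and 16.4 TPM in *Mir140*-null replicates 1 to 4. The ranges overlapped almost completely. Its log2 fold change was -0.07 with a 95% interval of -0.46 to 0.31 (limma adjusted p = 0.785), so a change within these bounds was not excluded. The copies *C1rb* and *C1s2* were at 0.232 TPM or lower in every library. The ratio of *C1s1* to *C1ra* TPM within a library was 2.66 to 3.57 in wild-type and 1.32 to 2.01 in *Mir140*-null libraries, without overlap. This ratio and that of *C3* to *C1s1*, 0.466 to 1.2 in wild-type and 2.71 to 5.07 in *Mir140*-null libraries, were chosen after the values were seen and are given without a test.

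**Figure D2:**
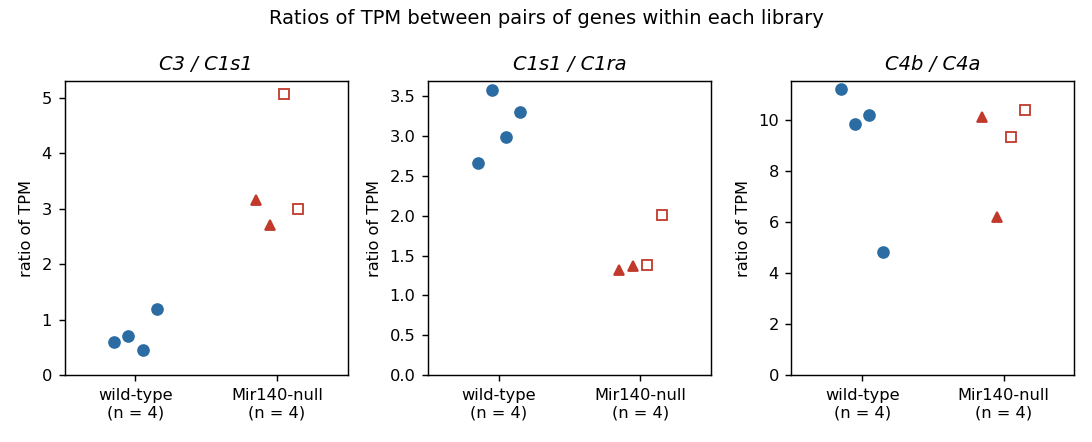
Ratios of TPM between 2 genes within each library, for *C3* to *C1s1*, *C1s1* to *C1ra* and *C4b* to *C4a*, with wild-type libraries as blue circles, *Mir140*-null replicates 1 and 2 as red triangles and replicates 3 and 4 as open red squares. The genotypes do not overlap for the first pair (0.466 to 1.2 against 2.71 to 5.07) or the second, and overlap for *C4b* to *C4a*.

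The 3 regulators did not pass the test, and their values followed the split among *Mir140*-null libraries. *Cd55* (decay-accelerating factor, chr1:130439027-130462744, minus strand) was at 3.35, 5.09, 6.51 and 5.76 TPM in wild-type and 1.0, 1.73, 5.89 and 5.52 TPM in *Mir140*-null replicates 1 to 4. Replicates 1 and 2 were below every wild-type library, while replicates 3 and 4 lay inside the wild-type range, 4.18-fold above the mean of the other two. On the log2 scale the change was -0.61 (SE 0.42, 95% interval -1.58 to 0.35, limma adjusted p = 0.338). It was -1.37 (adjusted p = 0.0185) without *Mir140*-null replicates 3 and 4 and 0.15 (adjusted p = 0.749) without replicates 1 and 2. The copy *Cd55b* was listed at 0 in every library.

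*Serping1* (C1 inhibitor, chr2:84765387-84775444, minus strand) was at 2.84, 4.75, 6.04 and 4.1 TPM in wild-type and 3.59, 3.62, 12.3 and 8.7 TPM in *Mir140*-null replicates 1 to 4. Only *Mir140*-null replicates 3 and 4 exceeded the wild-type range, and they were 2.91-fold above replicates 1 and 2. The genotypes differed by a log2 fold change of 0.45 (SE 0.38, 95% interval -0.42 to 1.32, limma adjusted p = 0.438). *Cd59a* (the CD59 form with the broader expression in mouse, chr2:104095801-104115354, plus strand) was at 3.42, 1.95, 3.95 and 3.56 TPM in wild-type and 0.936, 1.56, 2.78 and 1.92 TPM in *Mir140*-null replicates 1 to 4. Replicates 1, 2 and 4 were below every wild-type library, but wild-type replicate 2 was close to replicate 4. This gave a log2 fold change of -0.61 (SE 0.24, 95% interval -1.17 to -0.04, limma adjusted p = 0.123). For the neighbouring copy *Cd59b* it was -0.72 (SE 0.32, adjusted p = 0.154), from 2.25 to 6.0 TPM in wild-type and 0.86 to 2.82 TPM in *Mir140*-null libraries.

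**Figure D3:**
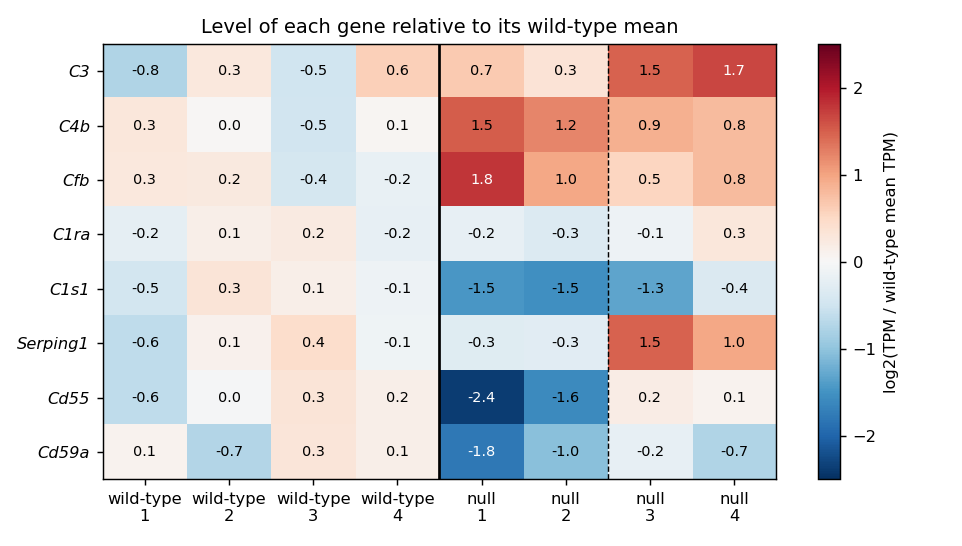
Heat map of log2(TPM / wild-type mean TPM) for the 8 genes in the 8 libraries, with a solid line between the genotypes and a dashed line between *Mir140*-null replicates 1 and 2 and replicates 3 and 4. *C4b* and *Cfb* are highest in *Mir140*-null replicate 1, *C3* in replicate 4 and *Serping1* in replicate 3, and *Cd55* is lowest in replicates 1 and 2.

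In all 8 genes *Mir140*-null replicates 1 and 2 lay on one side of replicates 3 and 4, a split seen in 56.6% of tested genes. *C3*, *C1ra*, *C1s1*, *Serping1*, *Cd55* and *Cd59a* had the higher mean in replicates 3 and 4, by 1.29-fold (*C1ra*) to 4.18-fold (*Cd55*). *C4b* and *Cfb* had the higher mean in replicates 1 and 2, by 1.45-fold and 1.71-fold. The fibroblast and perichondrium markers that were lower in replicates 1 and 2 included *Col1a1*, at 793 to 1540 TPM in wild-type and 47.8, 50.1, 1330 and 898 TPM in *Mir140*-null replicates 1 to 4. None of the 8 markers of that list was at 0 in any library, and 1 of them was called higher and 1 lower in *Mir140*-null libraries. The 1 called higher, *Pdgfra*, did not follow *Col1a1*. It was at 11.8 to 19.8 TPM in wild-type and 34.5, 36.5, 31.5 and 34.3 TPM in *Mir140*-null replicates 1 to 4. The 1 called lower, *Dcn*, split far less, at 449 to 508 TPM in wild-type and 297, 319, 361 and 424 TPM in those replicates. The 8 macrophage markers summed to 35.6 to 61.7 TPM in wild-type and to 133, 125, 71.4 and 70.0 TPM in *Mir140*-null replicates 1 to 4. That increase lay in *Cd14* (13.5 to 21.4 TPM against 38.9 to 116), the 1 marker of the list called higher. *Lyz2* was called lower (means of 1.16 and 0.311 TPM), *Mrc1* was lower without overlap (0.424 and 0.16 TPM), and *Adgre1* and *Ptprc*, which define macrophages and leukocytes, were at 0.59 TPM or lower in every library. The 6 endothelial markers summed to 14.8 to 35.1 TPM in wild-type and 12.6, 11.6, 48.8 and 19.6 TPM in *Mir140*-null replicates 1 to 4. The 6 erythroid markers split in the same way within the null libraries, at 432, 256, 1730 and 1370 TPM against 646 to 1850 TPM in wild-type. The sums of other lists separated the genotypes without overlap. The 7 neutrophil and marrow myeloid markers summed to 2.04 to 5.98 TPM in wild-type and 6.84 to 10.3 TPM in *Mir140*-null libraries, with 1 of them, *Camp*, called higher (means of 1.23 and 4.15 TPM). *S100a9* also had a higher mean (1.44 and 3.22 TPM) but was not called. *Mpo* was lower without overlap (0.214 and 0.0503 TPM), and *Ltf* had a lower mean (0.77 and 0.485 TPM). The 6 skeletal muscle markers summed to 61.2 to 96.4 TPM in wild-type and 33.5 to 57.3 TPM in *Mir140*-null libraries. Only 3 of them were tested and none was called. *Tnnt3*, the largest, overlapped between the genotypes (40.4 to 73.1 against 28.4 to 54.4 TPM). The part of these cell types in the results on the 8 genes was not tested, and in such bulk RNA fewer cells of a type and less RNA per cell cannot be told apart.

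The order of the 8 genes by level changed between genotypes. TPM are per transcript length, so levels of different genes can be set side by side. In wild-type libraries *C1s1* led with a mean of 42.2 TPM, at percentile 86.6 of tested genes, followed by *C3* (30.9 TPM), *C4b* (18.3 TPM) and *C1ra* (13.4 TPM). *Cd55*, *Serping1*, *Cd59a* and *Cfb* came after them with means of 2.78 to 5.18 TPM. The ranges of neighbours in this order overlapped, except that every *C1ra* value exceeded every *Cd55* value. In *Mir140*-null libraries *C3* led with 68.2 TPM, at percentile 90.3, and *C4b* followed with 40.2 TPM, ahead of *C1s1* with 19.9 TPM. Neighbours overlapped throughout that order, and *C4b* was above *C3* in *Mir140*-null replicates 1 and 2. Together the 8 genes summed to 95.8 to 138 TPM in wild-type and 119 to 201 TPM in *Mir140*-null libraries, and *C1s1* made up 29.3% to 40.3% of that sum in wild-type against 9.74% to 16.4% in *Mir140*-null libraries.

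Among the 8 genes, *C4b* and *Cfb* had the most similar profile over the 8 libraries, with a root mean square difference of 0.21 in centred log2(TPM + 1). *C4b* and *C1s1* were the least similar, at 1.24. Over tested genes with a mean of at least 5 TPM, the 3 nearest to *C4b* were *C9orf72*, *Gorasp2* and *Aebp2* at 0.15 to 0.16, and those nearest to *Cfb* were *Pprc1*, *Zdhhc3* and *Zmynd19* at 0.11 to 0.12. *C3* had no profile as near, with *Elovl7*, *Zbtb7c* and *Vsir* at 0.29 to 0.34. *C1s1* was nearest to *Hspb7*, *Thra* and *Tuft1*, at 0.23 to 0.26. The nearest to *C1ra* were *Ppp3r1*, *Polr3c* and *B3glct* at 0.08 to 0.10, and to *Serping1* *Cav2*, *Gm28438* and *Rnase4* at 0.19 to 0.21. For *Cd55* they included *Zfp386* at 0.15 and *Anxa1* at 0.16, and for *Cd59a* they were *Tyms*, *Pid1* and *Ift27* at 0.13 to 0.14. The distance is smaller for genes that vary less, and none of these genes belongs to the complement list.

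The rest of the complement system was read from a list of 59 genes that includes the 8. Of these, 29 passed the filter, of which 1 was called higher (*C4b*) and 5 lower (*C1s1*, *Colec12*, *Clu*, *Itgam* and *Cpn1*) in *Mir140*-null libraries, and 23 were not called, where 10.5% of all tested genes were called higher and 6.4% lower. Their median log2 fold change was -0.24, against -0.01 over all tested genes. The median over the 6 tested genes of C3, C4, C2 and the alternative pathway was 0.82, and it lay between -0.52 and -0.19 in each of the other 5 classes, each of which had at most 7 tested genes. Several further genes are named in what follows after their values were seen.

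Apart from C1r and C1s, most components upstream of C4 were below the filter. *C1qa*, *C1qb* and *C1qc*, the chains of the molecule to which C1r and C1s bind, were at 0.107 TPM or lower in every library. The mannose-binding lectin gene *Mbl1* was listed at 0 throughout, and *Masp1* was at 0.165 TPM or lower. The related protease gene *Masp2* did pass the filter, at 0.647 to 3.15 TPM in wild-type and 0.778 to 3.32 TPM in *Mir140*-null libraries. It was not called (log2 fold change -0.28, limma adjusted p = 0.62). *Colec12*, a scavenger receptor of the collectin family, was at 65.3, 62.1, 64.7 and 67.4 TPM in wild-type and 26.8, 28.5, 37.2 and 37.1 TPM in *Mir140*-null replicates 1 to 4. The genotypes were widely apart, with a log2 fold change of -0.99 (SE 0.13, limma adjusted p = 0.00619).

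Of the alternative pathway, *C2*, which encodes the classical pathway counterpart of factor B and whose 3′ end lies 85 bases from the start of *Cfb*, was at 1.24 to 1.51 TPM in wild-type and 1.13 to 1.96 TPM in *Mir140*-null libraries (log2 fold change 0.07, 95% interval -0.25 to 0.39). *C2* shared 37.0% of its 75-base words with *Gm20547*. *Cfp*, which encodes properdin, the stabiliser of the alternative pathway enzyme, was at 0.44 to 1.64 TPM in wild-type and 4.2, 3.79, 1.69 and 1.07 TPM in *Mir140*-null replicates 1 to 4 (log2 fold change 0.77, limma adjusted p = 0.144). *Cfd*, the gene of the protease that activates factor B, was listed at 0 in every library. Of the terminal pathway only *Hc*, which encodes C5, and *C8g* passed the filter, and neither was called.

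Soluble and membrane regulators outside the 8 included both the most abundant gene of the list and genes near 0. *Clu*, which encodes clusterin, an inhibitor of the terminal complex and a chaperone abundant in cartilage, was at 737, 917, 842 and 915 TPM in wild-type and 483, 566, 382 and 468 TPM in *Mir140*-null replicates 1 to 4. No library of one genotype overlapped the other, and the log2 fold change was -0.85 (SE 0.14, limma adjusted p = 0.00936). *Cpn1*, the catalytic subunit of carboxypeptidase N, which inactivates the anaphylatoxins, was at 1.06 to 1.44 TPM in wild-type and 0.2 to 0.601 TPM in *Mir140*-null libraries (log2 fold change -0.66, SE 0.12, limma adjusted p = 0.0142). *Cr1l*, the rodent membrane regulator Crry, was at 49.1 to 58.5 TPM in wild-type and 49.8 to 63.3 TPM in *Mir140*-null libraries. Its log2 fold change was 0.05 with a 95% interval of -0.19 to 0.30, the narrowest of the membrane regulators. *Cfi*, the gene of the protease factor I, was at 0.0285 TPM or lower.

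Among receptors *Itgam*, a chain of complement receptor 3, was at 1.79 to 2.67 TPM in wild-type and 0.673 to 1.33 TPM in *Mir140*-null libraries (log2 fold change -0.77, SE 0.15, limma adjusted p = 0.0165). It shared 65.2% of its words with *Gm49368*, an overlapping gene that was at 0.901 TPM or lower. The other chain of that receptor, *Itgb2*, was at 2.25 to 5.7 TPM in wild-type and 1.43 to 5.88 TPM in *Mir140*-null libraries. *Itgb2* was not called (log2 fold change -0.24, limma adjusted p = 0.712), and neither was *Itgax* (-0.85, limma adjusted p = 0.0641). Of the 4 receptors tested, 3 were not called. The anaphylatoxin receptors *C3ar1* and *C5ar1* were at 0.404 TPM or lower in every library.

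**Figure D4:**
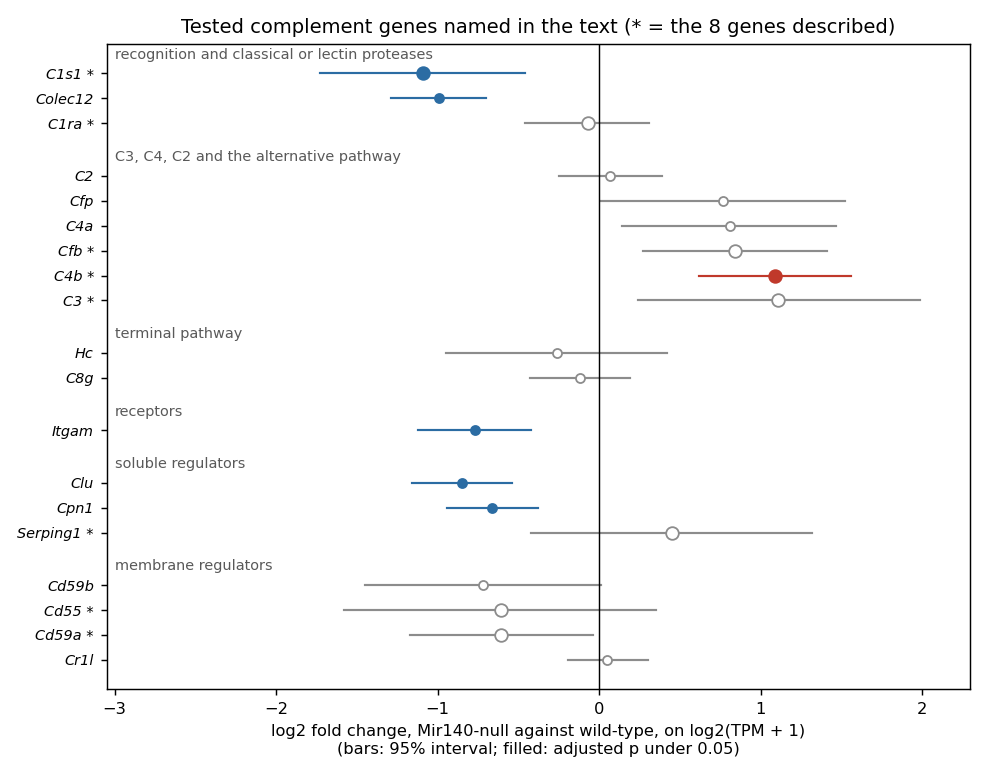
Log2 fold change of *Mir140*-null against wild-type on log2(TPM + 1), with 95% intervals, for the tested complement genes named in the text except *Masp2*, *Itgb2* and *Itgax*, grouped by role. Filled points passed the test (red higher, blue lower in *Mir140*-null), asterisks mark the 8 genes described, and 1 filled point lies above 0 against 5 below.

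RefSeq promoters on GRCm38/mm10, from 250 bases before to 50 bases after a gene's start, were matched by symbol for 5 of the 8 genes, *C3*, *C1ra*, *C1s1*, *Cd55* and *Cd59a*. They were searched on both strands for the motif TTGCNNAA (C/EBP), TTCNNNGAA (GAS, the STAT element) and, by their general consensus, for NF-kB and the interferon element ISRE. C/EBP and NF-kB factors are known regulators of acute-phase complement genes. The promoter of *C3* held the C/EBP word starting 45 bases before its start, a word found in 10.8% of 32851 promoters. *C1ra* held the GAS word, found in 8.3% of promoters, 32 bases after its RefSeq start, and a C/EBP word 16 bases after that start. This RefSeq start lies inside the span of *C1ra* given above, downstream of the first base of that span. *C1s1* held a C/EBP word 242 bases before the first of its 2 listed starts, and *Cd59a* an ISRE word 187 bases before its start, found in 3.44% of promoters. *Cd55* held none of the motifs. The NF-kB consensus, found in 8.46% of promoters, was in none of the 5. These windows of 30 bases lie in chr17:57228087-57228386, chr6:124512371-124512670 and chr6:124542310-124542609, and capitals mark the word.
C3: ggaaactatgTTGCGAAAttttgggcagtc
C1ra: gcaaatgcttcaTTCCCTGAAacattcctc
C1s1: agagagaaTTAGGCAAtctcaaaattcccc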

How the data were processed

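The deposited values are TPM for each Ensembl gene, which the authors obtained with Salmon and the mm10 transcriptome from single-end reads of stranded mRNA libraries. Per the labels, the processing also names FastQC 0.11.7 and DESeq2. These TPM carry no scaling between libraries and no counts, so no count test or counting interval was made. Identifiers on several lines were counted once, and GENCODE M21 held 99.8% of them.

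Genes reaching 0.5 TPM in 4 or more libraries were tested with limma 3.58.1 (R 4.3.3, mean-variance trend) on log2(TPM + 1), with genotype as the only term, and called at a Benjamini-Hochberg adjusted p under 0.05. Tables and figures used Python 3.11.15 and pandas 2.3.3. The test was tried on simulated data first.

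The genes named are the 8 members, their mouse paralogs, called genes of the complement list and the 3 tested genes nearest to each member among those with a mean of at least 5 TPM. Members and lists were chosen with earlier results of these data known, and other genes after their values were seen. Some genes that this rule or list covers are not reported here. Alternatives were another pseudocount, filter or scaling, a replicate block, 1 factor of unwanted variation, sample weights and leaving out libraries. The factor was computed from what remained after fitting genotype. It therefore left every log2 fold change as it was and could change only the error.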

Additional observations from a re-analysis of the deposited data

Results flagged for a closer look

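*C1s1* in the library labelled *Mir140*-null replicate 4 was at 32.9 TPM, against 14.5 to 17.0 TPM in the other *Mir140*-null libraries. Its gap to the nearest of them was 0.865 of the range of the 4 libraries, above the 95% critical value of Dixon's test for 4 samples. It was the only such library among 24 sets of 4 values examined for the named genes, where chance would mark about 1 in 20. Without it the log2 fold change of *C1s1* was -1.35 (limma adjusted p = 0.0165), against -1.09 (adjusted p = 0.033) with it.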

How the results depend on the processing

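*C4b* was called in all 8 fits that left out 1 library and all 8 other planned settings, *C1s1* in 2 and 6 of them. The number of the 8 genes called was 1 with no filter, 5 with 1 factor of unwanted variation (*C3*, *C4b*, *Cfb*, *C1s1* and *Cd55*), and 1 to 2 when 1 library was left out. With the factor the log2 fold changes were those of the main test by construction, so its added calls reflect only a smaller error. On the complement list, the genes called higher numbered 2 without mitochondrially encoded genes, 2 with sample quality weights, 4 with 1 factor and 1 to 2 when 1 library was left out. Those called lower numbered 2 with no filter, 3 at a mean of at least 5 TPM, and 4 to 6 when 1 library was left out. Over all tested genes the count of 2897 became 1516 with no filter, 4476 with 1 factor and 1202 to 2767 when 1 library was left out, lowest without *Mir140*-null replicate 2. The cause was not tested, except that with no filter 36617 genes shared the adjustment, and that *Itgam* and *Cpn1* fell below the filter at a mean of 5 TPM. With that filter *C1s1*, *Colec12* and *Clu* were still called lower.

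2 alternatives were added after seeing the data. Without *Mir140*-null replicates 1 and 2, limma called 0 of the 8 genes (5 at an unadjusted p under 0.05), 0 complement genes higher (4 at an unadjusted p under 0.05), 2 lower, and 567 genes (3.3%) in all. Without replicates 3 and 4, 4 of the 8 were called (*C4b*, *Cfb*, *C1s1* and *Cd55*), 4 complement genes were higher, 7 lower, and 4101 genes (23.9%) were called in all. 4 fold changes of genes not called in the main test changed sign, *C1ra* (-0.19 to 0.0 when 1 library was left out) to 0.0 without replicate 2 and to 0.09 without replicates 1 and 2, *Cd55* to 0.15 without replicates 1 and 2, and *Serping1* to -0.2 without replicates 3 and 4.

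Replicate numbers are shared between the genotypes, but deviations of same-numbered libraries from their group means correlated by only -0.009 to 0.069, so the numbers were not taken as pairs. With the replicate block, 1 of the 8 genes (*C4b*, adjusted p = 0.0398) was called, 3 complement genes were lower, and 1125 genes were called in all. The labels give only a lower bound on reads for each sample, and TPM hold no counts, so no counting error could be set on genes near 0.5 TPM.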
